A study of Mus musculus with 8 samples.

Results

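Undifferentiated mouse embryonic stem cells (ESCs) lacking Uhrf1 were compared with wild-type (WT) ESCs by sequencing of their messenger RNA. Both libraries were labelled as undifferentiated E14 cells, a male mouse ESC line: 1 carried the genotype label WT and 1 the label Uhrf1 knockout (KO). The cells had been kept in serum medium with leukaemia inhibitory factor on gelatin or on plates coated with mouse embryonic fibroblasts, and the labels do not say which of the 2 surfaces was used for each library. The series holds 8 libraries in 8 groups of 1: the other 6 are embryoid bodies (EBs), cell aggregates in which ESCs differentiate, of both genotypes at weeks 1, 2 and 3. The cells of each genotype are labelled as 1 line, so a difference between the genotypes cannot be told apart from a difference between these lines or between these cultures. Of 20215 genes in the table, 11053 (54.7%) reached a level of 1 RPKM (reads scaled to transcript length and to library size) in at least 1 of the ESC libraries, and these genes make up the comparison. A gene is called higher or lower here when RPKM + 1 differed by 1.5-fold or more, and single genes are given by their RPKM in each library. With 1 library a side no test was possible, and the 95% intervals of ratios below cover the counting of reads only.

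Uhrf1 encodes a nuclear protein that binds CG dinucleotides methylated on one strand, the state left by DNA replication, and brings the DNA methyltransferase Dnmt1 to them. It also reads and ubiquitinates histone H3. In mouse cells, loss of this maintenance pathway removes methyl groups from most of the genome. Genes best known to be held silent by promoter methylation in mice are those of germ cells and of the X-linked Rhox homeobox cluster, and imprinted genes are expressed from a single parental copy that methylation marks.

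Uhrf1 itself (chr17:56442744-56462909 in mm9, plus strand) was at 78.8 RPKM in WT and at 45.2 RPKM in KO ESCs, a ratio of WT to KO of 1.74 (95% interval 1.72 to 1.77). In the EBs it was at 43.8, 36.8 and 41.0 RPKM in WT and at 27.1, 34.6 and 31.0 RPKM in KO at weeks 1 to 3. The level of the KO library was below that of the WT library of its stage at all 4 stages. This level sums all reads of the gene, so the presence of the targeted part cannot be read from it, and it checks the KO label only in part. Of 10 genes of methylation maintenance, Uhrf1 was the 1 called, and Dnmt1 was at 53.1 RPKM in WT and 52.7 RPKM in KO. Its relative Uhrf2 was at 28.0 and 24.6 RPKM. Among the 3 detected genes of de novo methylation, Dnmt3l, a cofactor without catalytic activity, was higher (163 to 254 RPKM; this call ends when both libraries are scaled to the same RPKM total or genes are centred by transcript length), while the enzymes Dnmt3a (14.3 to 10.04 RPKM) and Dnmt3b (55.9 to 46.9 RPKM) stayed within 1.5-fold. Of 8 detected demethylation genes, the dioxygenase Tet2 was lower (5.57 to 3.18 RPKM), a call that ends when genes are centred by transcript length. The stress gene Gadd45b was higher (16.2 to 31.4 RPKM), and Tet1 was at 28.6 and 19.3 RPKM. Of all genes 3.84% were higher and 2.29% lower.

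Both ESC libraries were deep, at an estimated 169400000 reads for WT and 175800000 for KO, against 12800000 to 45600000 in the EB libraries. At this depth 3 reads on a transcript of 1 kb correspond to 0.0177 RPKM in WT and 0.0171 RPKM in KO ESCs. The cell type label was checked against markers. All 7 ESC identity markers in the table were detected in both libraries and none was called, and their summed level was 3005 RPKM in WT and 3735 RPKM in KO. The difference between these sums was close to that of Dppa5a alone (1560 and 2291 RPKM), and the other markers differed in both directions. Of 16 fibroblast markers 5 were detected and 1, Col1a1, was lower (5.80 to 2.49 RPKM), with summed levels of 24.6 and 17.7 RPKM. Lum was at 0 in WT and Col3a1 was at 0.0528 and 0.0766 RPKM. Blood and early mesoderm markers summed to 1.63 and 1.77 RPKM in WT and to 1.33 and 1.55 RPKM in KO. In such bulk libraries, fewer cells of a type and less RNA per cell cannot be told apart.

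In KO ESCs 424 genes (3.84% of the 11053) were higher and 253 (2.29%) were lower. With a 2-fold threshold 113 genes (1.02%) were higher and 36 (0.326%) were lower. The median log2 fold over all genes was 0.04. Of all calls 62.6% were higher, and when both libraries were scaled to the same RPKM total this share was 49.0%, with 340 genes higher and 354 lower. This scaling moved all log2 folds by 0.08. Of the 10594 genes at 1 RPKM or more in both libraries, 344 (3.25%) were higher and 223 (2.10%) lower. The other calls lay in genes that reached 1 RPKM in 1 library alone, where the direction is fixed by the choice of genes: 80 of 287 such genes were called in KO and 30 of 172 in WT. Just inside the detection limit lay Fadd (0.832 and 1.00 RPKM) and just outside it Nfam1 (0.464 and 0.999 RPKM). At the fold threshold Glrx (39.0 to 58.9 RPKM) was just inside and Ngfrap1 (239 to 359 RPKM) just outside for higher genes. For lower genes Triml1 (15.4 to 9.92 RPKM) was just inside and Atp1b2 (11.6 to 7.37 RPKM) just outside.

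**Figure D1:**
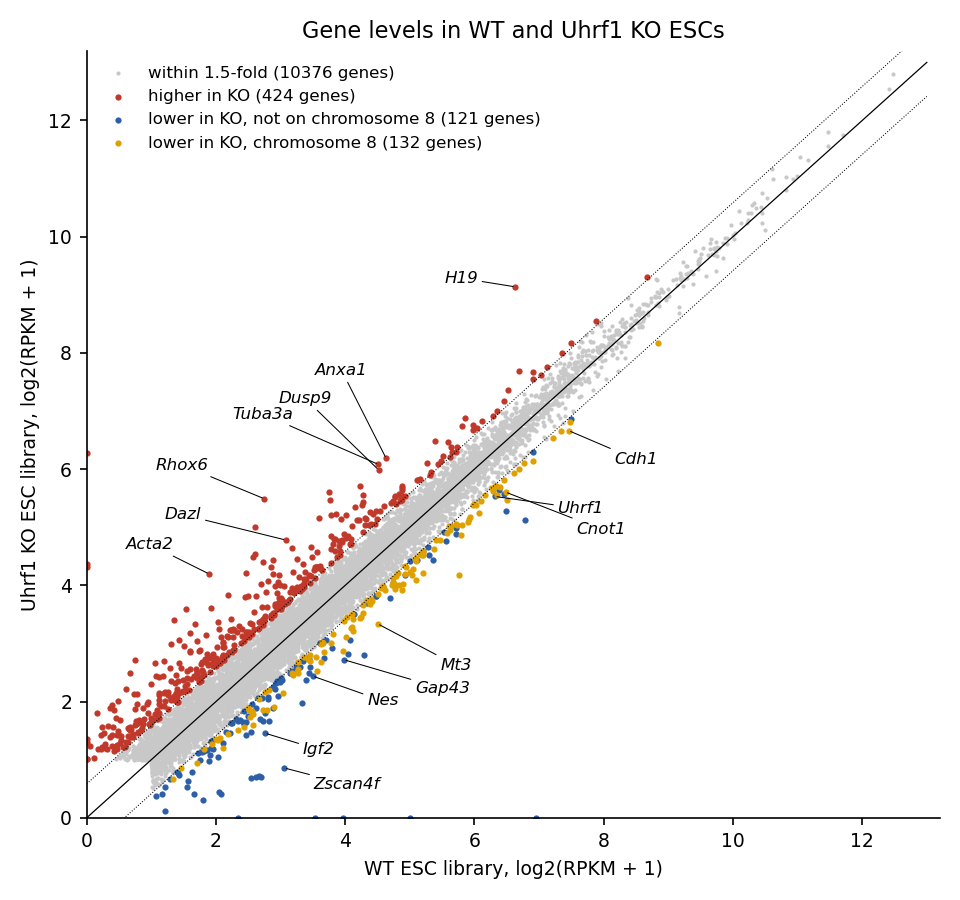
Level of each of the 11053 genes in the WT ESC library (x axis) and the Uhrf1 KO ESC library (y axis), both as log2(RPKM + 1); the dotted lines mark 1.5-fold. Red points are the 424 higher genes, yellow points the 132 lower genes of chromosome 8 and blue points the other 121 lower genes, and most yellow points run as a band just beyond the lower dotted line.

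Chromosome 8 stood apart from all others and is described first because it touches many of the calls below. It holds 587 of the 11053 genes, yet 132 of the 253 lower genes (52.2%) lie on it. On chromosome 8, 22.5% of genes were lower and 1.02% (6 genes) higher, while of the 10466 other genes 1.16% (121) were lower and 3.99% (418) higher. Among its 408 genes at 5 RPKM or more in both libraries, 385 (94.4%) had a KO level below WT. The median KO level was 72.9% of WT, a median log2 ratio of -0.46, against medians between -0.02 (chromosome 11) and 0.12 (chromosome 7) for the other chromosomes. The shift ran along the whole chromosome: in the 12 windows of 10 Mb that held at least 10 such genes, the medians lay between -0.60 and -0.33.

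Lower genes of chromosome 8 included Cnot1, the scaffold of the CCR4-NOT deadenylase, at 88.4 RPKM in WT and 47.7 RPKM in KO. Smarca5, a chromatin remodelling ATPase, was at 54.4 and 28.3 RPKM. Cdh1, which encodes E-cadherin, was at 175 and 100 RPKM, and Itgb1, an integrin subunit, was at 107 and 68.3 RPKM. Slc25a4, a mitochondrial ADP/ATP carrier, was at 456 and 287 RPKM. A few genes departed from the shift. Mt3, a metallothionein (21.7 to 9.11 RPKM), Chd9, a chromodomain helicase (14.599 to 6.32 RPKM), and Fat1, a large cadherin (10.8 to 4.74 RPKM), were still lower after each chromosome was centred on its own median. Acta1, skeletal muscle actin, was higher (15.1 to 36.1 RPKM), as were the basement membrane collagens Col4a1 (28.0 to 44.4 RPKM) and Col4a2 (10.8 to 18.8 RPKM). With each chromosome centred on its own median, 366 genes were higher and 164 lower in all, and chromosome 8 held 27 higher and 5 lower genes.

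The same chromosome stood apart in the EBs. There its median KO level was 69.6%, 77.7% and 72.3% of WT at weeks 1, 2 and 3, and 93.9%, 90.7% and 95.3% of its genes were below WT. The medians of the other chromosomes lay between -0.11 and 0.08 at week 1 on the log2 scale, between -0.03 and 0.39 at week 2 and between -0.13 and 0.22 at week 3, where the highest value was that of chromosome 11 at each week. As background, an extra copy of chromosome 8 is a known change of mouse ESC lines in culture. Chromosome number was not measured here and its part in the shift was not tested. A ratio between 2 libraries also does not show in which of them the chromosome departs, so the genotype that carries the difference cannot be told apart.

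**Figure D2:**
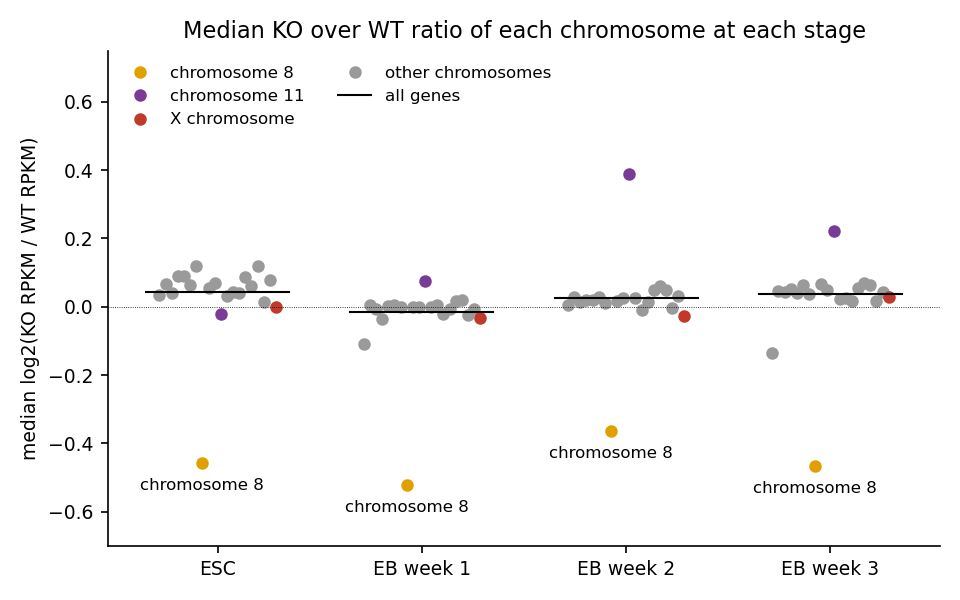
Median log2 ratio of KO to WT RPKM of each chromosome (points) and of all genes (black line) at each stage, over genes at 5 RPKM or more in both libraries of the stage. Chromosome 8 lies at -0.46 in ESCs and at -0.52, -0.36 and -0.47 in the EBs, below every other chromosome at all 4 stages.

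Part of the germline genes were higher in KO ESCs. The table held 65 autosomal germline genes, and of the 52 that were detected 16 were higher and 0 lower, against 3.84% and 2.29% of all genes. Their median log2 fold was 0.28 and that of all genes was 0.04. Members of this and the other lists were chosen with earlier results of these data known. The shares of all genes beside list counts therefore give scale only and are not a test of enrichment. Of the 46 at 1 RPKM or more in both libraries, 15 were higher. Dazl, an RNA-binding protein that germ cells need, was at 7.45 RPKM in WT and 26.5 RPKM in KO (ratio 3.56, 95% interval 3.43 to 3.69). Gtsf1, a protein of the pathway that silences transposons through piRNAs, was at 2.80 and 11.2 RPKM (ratio 4.003, 3.58 to 4.48). Mael, a further gene of that pathway, was at 10.1 and 24.3 RPKM, and Fkbp6, a cochaperone also used there, was at 6.38 and 20.7 RPKM. Tuba3a, a testis alpha-tubulin, was at 21.8 and 66.8 RPKM, and its near-identical relative Tuba3b was at 3.55 and 13.3 RPKM. Reads shared by such copies may have been divided between them.

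Genes of meiosis differed among themselves. Stra8, which germ cells need to enter meiosis, was at 2.04 and 6.2045 RPKM, Hormad1, a protein of meiotic chromosome axes, was at 3.02 and 5.70 RPKM, and the meiotic cohesin Smc1b was at 9.24 and 16.3 RPKM. Tex101, a surface protein of male germ cells, was at 1.08 and 5.32 RPKM (ratio 4.95, 4.24 to 5.81). By contrast, the synaptonemal complex gene Sycp3 (37.2 and 35.9 RPKM) and the germ granule helicase Ddx4 (11.9 and 13.7 RPKM) stayed within 1.5-fold, although both were well detected in WT.

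The promoters of genes that were higher are shown for Dazl, Tex101, Gtsf1, the X-linked 1700013H16Rik and the keratin gene Krt7, which is described below. Uhrf1 binds CG dinucleotides when they are methylated on one strand, and methylation of these promoters was not measured in these libraries. They are RefSeq sequences of the GRCm38.p6 build, 250 bases before to 50 after the annotated start, 5′ to 3′ on the gene's strand, with CG in capitals. They lie at chr17:50293571-50293870 (minus strand), chr7:24672001-24672300 (minus), chr15:103430378-103430677 (minus), chrX:53757782-53758081 (minus) and chr15:101412153-101412452 (plus), in this order.
Dazl: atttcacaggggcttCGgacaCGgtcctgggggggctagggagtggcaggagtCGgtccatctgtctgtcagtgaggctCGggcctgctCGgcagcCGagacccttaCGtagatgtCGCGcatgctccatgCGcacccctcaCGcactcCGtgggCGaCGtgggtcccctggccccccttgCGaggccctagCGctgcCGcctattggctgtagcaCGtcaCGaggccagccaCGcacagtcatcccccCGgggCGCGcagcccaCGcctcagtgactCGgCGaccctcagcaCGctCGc
Tex101: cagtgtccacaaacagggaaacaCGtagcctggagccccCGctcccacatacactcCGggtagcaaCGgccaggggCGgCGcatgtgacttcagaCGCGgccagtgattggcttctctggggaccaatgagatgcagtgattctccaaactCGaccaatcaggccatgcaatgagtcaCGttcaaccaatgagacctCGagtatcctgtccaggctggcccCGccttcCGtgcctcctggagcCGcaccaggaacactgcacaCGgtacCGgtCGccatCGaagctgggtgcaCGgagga
Gtsf1: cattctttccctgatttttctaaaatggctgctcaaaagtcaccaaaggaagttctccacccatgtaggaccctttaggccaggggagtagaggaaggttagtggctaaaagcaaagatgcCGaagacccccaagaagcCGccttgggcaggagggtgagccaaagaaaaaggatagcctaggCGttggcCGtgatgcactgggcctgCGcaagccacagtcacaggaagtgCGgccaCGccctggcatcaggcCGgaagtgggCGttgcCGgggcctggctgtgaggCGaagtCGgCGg
1700013H16Rik: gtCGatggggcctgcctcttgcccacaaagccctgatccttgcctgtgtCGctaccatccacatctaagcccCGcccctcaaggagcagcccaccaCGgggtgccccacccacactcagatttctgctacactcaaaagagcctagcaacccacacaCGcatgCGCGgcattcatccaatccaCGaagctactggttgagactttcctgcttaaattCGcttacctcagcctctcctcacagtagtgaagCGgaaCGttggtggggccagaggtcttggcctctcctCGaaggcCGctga
Krt7: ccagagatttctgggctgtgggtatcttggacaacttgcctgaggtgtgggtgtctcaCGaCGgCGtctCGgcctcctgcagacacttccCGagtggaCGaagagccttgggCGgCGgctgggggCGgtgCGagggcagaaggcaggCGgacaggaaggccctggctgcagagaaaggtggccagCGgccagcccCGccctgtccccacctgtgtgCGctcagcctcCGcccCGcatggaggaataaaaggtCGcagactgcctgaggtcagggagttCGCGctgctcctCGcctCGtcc

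The Dazl promoter holds 28 CG in its 300 bases, a number that 14.2% of the 32851 mouse promoters of the same table reach. Those of Krt7 and Tex101 hold 21 and 19 CG (24.8% and 28.1% of promoters have as many), and those of Gtsf1 and 1700013H16Rik hold 13 each (37.9%). The median promoter has 7 and 94.6% have at least 1. CACGTG, the E-box that reads the same on both strands, was found in 7.15% of all promoters, and TCCCGC or its complement GCGGGA in 19.98%. Neither was found in these 5 windows. The 7 genes whose promoters are printed were chosen after their values were seen. Promoters were found for 80.0% of the 11053 genes, for 79.2% of the higher and for 67.6% of the lower genes. Since fewer than 80% of the called genes have a sequence, a comparison of promoter CG classes between higher and lower genes is void.

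Among the chromosomes, the X chromosome had the highest share of higher genes. Of its 425 genes 55 (12.9%) were higher and 11 (2.59%) lower, and its median KO level was 99.9% of WT. In the Rhox cluster (Reproductive homeobox genes of the testis, ovary and placenta), 12 of 28 genes were detected and 11 of these were higher and 0 lower, with a median log2 fold of 1.23. Since 7 of the 12 reached 1 RPKM in KO alone, the count rests in part on the choice of genes, and of the 5 at 1 RPKM or more in both libraries 4 were higher. Rhox6, expressed in placenta and germ cells, was at 5.71 RPKM in WT and 44.0 RPKM in KO (ratio 7.70, 7.21 to 8.24). Rhox9 was at 5.10 and 31.2 RPKM (ratio 6.13, 5.85 to 6.42), Rhox1 at 2.03 and 6.30 RPKM and Rhox2a at 0.675 and 5.57 RPKM. Rhox10 (1.97 and 2.24 RPKM) was the detected member within 1.5-fold. The Rhox2 and Rhox4 genes are near-identical copies, so their single values are uncertain.

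Outside the Rhox cluster, the 13 detected genes of a list of X-linked germ-cell genes held 5 higher and 0 lower genes. All genes held 3.84% and 2.29%. With 1 RPKM required in both libraries, 4 of 10 were higher. Scml2, a Polycomb-group protein of male germ cells, was at 1.89 and 11.04 RPKM (ratio 5.84, 5.53 to 6.16), and Taf7l, a TFIID subunit of germ cells, was at 2.38 and 6.38 RPKM. Dusp9, a phosphatase of MAP kinases, was at 21.9 and 62.5 RPKM. Xlr3c, Xlr4b and Xlr4c of the multicopy X-linked lymphocyte-regulated family were at 6.95, 3.29 and 2.22 RPKM in WT and at 15.1, 6.66 and 4.94 RPKM in KO, and the other 6 of the 9 detected Xlr genes stayed within 1.5-fold. The X-linked genes with the largest folds at 5 RPKM or more included some of little known function. Gm364 was at 1.56 and 9.54 RPKM, 1700013H16Rik at 5.07 and 22.3 RPKM and Nup62cl at 12.6 and 43.1 RPKM.

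Many genes of epithelial cells were higher. Of 37 detected genes of epithelial structure 18 were higher and 1 was lower, against 3.84% and 2.29% of all genes. Their median log2 fold was 0.53, and of the 35 at 1 RPKM or more in both libraries 16 were higher. The lower member was Cdh1 on chromosome 8. Keratins, the intermediate filament proteins of epithelia, were higher in 7 and lower in 0 of 10 detected members. At 1 RPKM or more in both libraries, 5 of 7 were higher. Krt7 was at 11.1 and 34.6 RPKM (ratio 3.11, 3.03 to 3.19), and the pair of simple epithelia Krt8 (86.8 and 144 RPKM) and Krt18 (119 and 202 RPKM) were higher by a smaller ratio and at higher levels. Krt14 of basal layers was at 0.661 and 3.36 RPKM, and Krt19 (166 and 224 RPKM) stayed within 1.5-fold. Of 7 detected claudins, the strand proteins of tight junctions, 4 were higher (2 with both libraries scaled to the same RPKM total or with genes centred by length), among them Cldn3 (6.88 to 17.2 RPKM) and Cldn4 (80.5 to 127 RPKM). Wnt7b, a Wnt ligand of epithelia, was at 2.21 and 9.06 RPKM, Anxa1, a phospholipid-binding annexin, was at 23.8 and 71.7 RPKM, and Grhl2, a transcription factor of epithelial junctions, was at 3.36 and 6.70 RPKM. Epcam (111 and 146 RPKM) stayed within 1.5-fold.

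**Figure D3:**
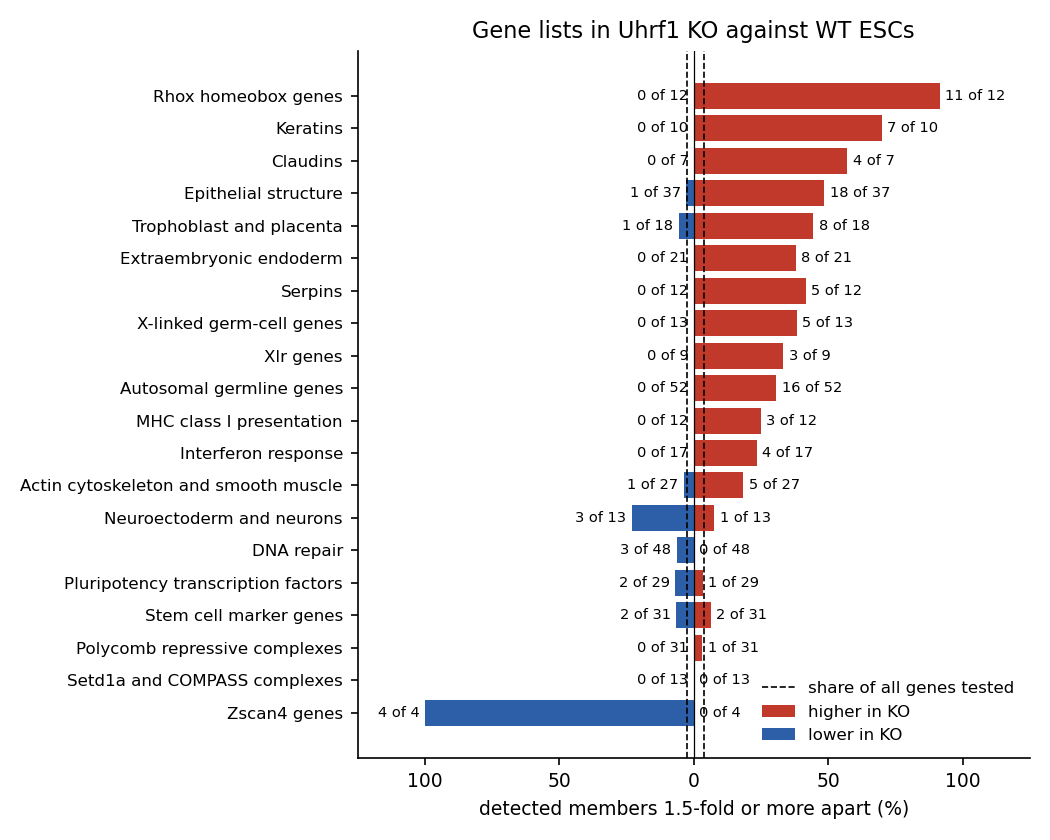
Share of the detected members of 20 gene lists and families that were higher (red, to the right) or lower (blue, to the left) by 1.5-fold or more in KO ESCs, with the numbers beside each bar; the dashed lines are the shares of all genes, 3.84% and 2.29%. The Rhox genes (11 of 12) and keratins (7 of 10) have the longest bars to the right and the Zscan4 genes (4 of 4) the longest to the left. At 1 RPKM or more in both libraries, 4 of 5 Rhox genes and 5 of 7 keratins were higher, and 0 Zscan4 genes remained. The lists were chosen with earlier results of these data known, so the dashed lines give scale only.

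Part of the genes of the extraembryonic lineages were higher. Of 18 detected genes of trophoblast and placenta 8 were higher and 1, Phlda2, was lower, against 3.84% and 2.29% of all genes. Of the 15 at 1 RPKM or more in both libraries 5 were higher. Hand1, a transcription factor of trophoblast giant cells and heart, was at 1.48 and 6.97 RPKM (ratio 4.71, 4.26 to 5.20). Plac1, a placental gene on the X chromosome, was at 0.403 and 3.04 RPKM, and Sct, which encodes secretin, was at 6.01 and 15.9 RPKM. The 7 trophoblast markers in the table summed to 15.0 RPKM in WT and 47.7 RPKM in KO, with 4 of 5 detected markers called higher. Most of both sums came from Krt7, which is also counted among the keratins above. The defining factors Cdx2 (0.0406 and 0.102 RPKM) and Elf5 (0.0706 and 0.174 RPKM) were under 1 RPKM in both libraries. Whether a few differentiated cells took part in these differences was not tested.

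Of 21 detected genes of extraembryonic endoderm 8 were higher and 0 lower, against 3.84% and 2.29% of all genes. At 1 RPKM or more in both libraries, 7 of 17 were higher. Gata4 (1.54 to 3.26 RPKM) and Gata6 (0.998 to 2.12 RPKM) are transcription factors of this lineage, and Dab2 (3.51 to 7.79 RPKM) is an endocytic adaptor. Srgn, a proteoglycan core protein, was at 8.07 and 24.1 RPKM, and the small heat shock protein Cryab was at 12.7 and 35.9 RPKM. The 14 endoderm markers summed to 287 RPKM in WT and 424 RPKM in KO, with 5 of 8 detected markers higher. The later markers Afp (0.0168 and 0.176 RPKM) and Ttr (0.0623 and 0.0753 RPKM) and the factors Sox17 (0.248 and 0.634 RPKM) and Foxa2 (0.192 and 0.425 RPKM) were under 1 RPKM in both.

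Of 9 detected genes of mesoderm and heart, 4 were higher and 0 lower, against 3.84% and 2.29% of all genes. All 4 were among the 7 at 1 RPKM or more in both libraries. They were Hopx, a homeodomain cofactor (3.08 to 9.33 RPKM), the cardiac actin Actc1 (2.68 to 5.88 RPKM), the troponin Tnnc1 (2.81 to 5.28 RPKM) and the signalling ligand Bmp4 (4.99 to 8.55 RPKM). Early mesoderm markers such as T (0.619 and 0.588 RPKM) were under 1 RPKM in both libraries. In the actin and smooth muscle list 5 of 27 detected genes were higher and 1 was lower, read against the same shares of all genes. Acta2, smooth muscle actin, was at 2.72 and 17.3 RPKM (ratio 6.38, 5.93 to 6.88), and Csrp1 (54.9 to 106 RPKM), Cald1 (18.9 to 34.3 RPKM) and Tagln (48.0 to 73.4 RPKM) were higher by less. The nonmuscle actins Actb (921 and 948 RPKM) and Actg1 stayed within 1.5-fold.

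Genes of antigen presentation and the interferon response were higher in part. The 12 detected genes of MHC class I presentation had a median log2 fold of 0.53. Of these, 3 were higher and 0 lower, against 3.84% and 2.29% of all genes. They were the immunoproteasome subunits Psmb8 (6.41 to 17.2 RPKM) and Psmb9 (4.69 to 8.17 RPKM) and the loading chaperone Tapbp (12.8 to 23.6 RPKM). Heavy chain gene H2-K1 (30.4 and 44.7 RPKM) and B2m (67.2 and 64.5 RPKM), which encodes the light chain, were within 1.5-fold. The class II gene H2-Eb1 was at 1.69 and 7.36 RPKM. Of 17 detected interferon response genes 4 were higher and 0 lower, against the same shares of all genes. They were Ifitm3 (102 to 206 RPKM), Irf1 (20.2 to 32.3 RPKM), Ifi35 (6.90 to 12.8 RPKM) and Isg15 (1.94 to 4.77 RPKM). Of 10 detected sensors of nucleic acids, Zbp1 (3.06 to 6.64 RPKM) was the 1 called. With 3.84% of all genes higher, 1 call among 10 is not read as a result about the group.

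Zscan4 genes, which mouse embryos switch on at the 2-cell stage and which a small share of cultured ESCs expresses from time to time, were all lower. Zscan4f was at 7.34 RPKM in WT and 0.812 RPKM in KO, 9.04-fold lower (95% interval 8.06 to 10.2). Zscan4c was at 5.38 and 0.649 RPKM, Zscan4b at 4.85 and 0.616 RPKM and Zscan4d at 3.22 and 0.322 RPKM. All 4 were under 1 RPKM in KO, so their selection rests on WT alone. Gm5662 (5.497 and 0.632 RPKM), Gm8300 (3.13 and 0.355 RPKM), Gm2022 (2.48 and 0.240 RPKM) and BB287469 (2.16 and 0.325 RPKM), which the study picked as 2-cell genes from these same samples, were also lower, so they are not independent evidence of the direction. Gm2016 was at 5.15 and 0.618 RPKM. These genes are near-identical copies, and their reads may have been shared among them. Of 29 genes listed for the 2-cell stage from general knowledge 13 were in the table, of which these 4 Zscan4 genes were the ones detected, and the other 9 were under 1 RPKM in both libraries.

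The promoters of 2 Zscan4 genes are shown beside those above because they hold few CG. The difference in CG number from the promoters above therefore comes from the choice of genes. A part of CG number or methylation in the calls was not tested. They are from the same table and build, at chr7:11397665-11397964 and chr7:11005495-11005794, both on the plus strand.
Zscan4f: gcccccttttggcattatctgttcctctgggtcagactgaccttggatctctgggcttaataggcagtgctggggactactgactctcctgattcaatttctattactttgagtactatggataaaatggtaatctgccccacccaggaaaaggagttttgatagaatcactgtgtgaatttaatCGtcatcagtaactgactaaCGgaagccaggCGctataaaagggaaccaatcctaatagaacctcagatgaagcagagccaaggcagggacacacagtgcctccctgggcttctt
Zscan4c: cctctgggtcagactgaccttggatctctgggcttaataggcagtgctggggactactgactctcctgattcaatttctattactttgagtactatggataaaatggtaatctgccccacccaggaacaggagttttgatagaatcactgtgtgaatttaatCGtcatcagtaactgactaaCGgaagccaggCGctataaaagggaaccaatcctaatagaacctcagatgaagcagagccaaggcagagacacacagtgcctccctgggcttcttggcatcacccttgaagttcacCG

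They hold 3 and 4 CG in 300 bases, and 31.4% and 38.0% of promoters have as few. Neither holds one of the motifs searched above. The longest run of identical bases between them is 127 bases, from base 24 of the Zscan4f window and base 1 of the Zscan4c window.

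A few neural genes were lower. Of 13 detected genes of neuroectoderm and neurons 3 were lower and 1 was higher, against 2.29% and 3.84% of all genes. Their median log2 fold was -0.35. Among the 11 at 1 RPKM or more in both libraries, 2 were lower and 1 was higher. Gap43, a growth cone protein, was at 14.8 and 5.59 RPKM (2.65-fold lower, 2.49 to 2.82), Nes, the intermediate filament of neural progenitors, was at 10.3 and 4.42 RPKM (2.34-fold lower, 2.26 to 2.42), and Pax6, a transcription factor of eye and brain, was at 2.09 and 0.725 RPKM. Nefm, a neurofilament subunit, was higher (2.04 to 4.87 RPKM). Tubb3, the neuronal tubulin, was at 35.9 and 24.8 RPKM and lies on chromosome 8. The 6 neural markers summed to 48.4 RPKM in WT and 30.1 RPKM in KO, with Sox1, Neurog2 and Dcx under 1 RPKM in both libraries. Tubb3 made up most of both sums.

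The network that maintains pluripotency differed little. Of 29 detected pluripotency transcription factors 1 was higher and 2 were lower, against 3.84% and 2.29% of all genes. Both lower genes, Klf2 (43.2 to 26.6 RPKM) and Sall1 (26.4 to 14.9 RPKM), lie on chromosome 8. Pou5f1, which encodes Oct4, was at 705 and 769 RPKM, Sox2 at 128 and 132 RPKM, Esrrb at 80.9 and 74.6 RPKM and Klf4 at 12.3 and 15.2 RPKM. Sox15, a relative of Sox2, was the higher member (28.5 to 50.2 RPKM). Prdm14 (6.59 and 7.93 RPKM), the Nodal inhibitor Lefty1 (22.4 and 17.5 RPKM) and Zfp42 (134 and 107 RPKM; chromosome 8) stayed within 1.5-fold. Among the stem cell marker genes, the connexin Gjb5 (10.9 to 22.8 RPKM) was higher, and the secreted phosphoprotein Spp1 (179 to 116 RPKM) and the RNA-binding Lin28b (6.35 to 3.79 RPKM) were lower.

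Genes of chromatin complexes were close to their WT level. None of 13 detected genes of the Setd1a and COMPASS complexes, which methylate histone H3 at lysine 4, was called, and their median log2 fold was -0.09. Under each scaling alternative and with genes centred by length, 1 of the 13 was lower. Setd1a was at 17.4 and 13.9 RPKM, and Ash2l, on chromosome 8, was at 165 and 110 RPKM, just inside 1.5-fold. Of 31 Polycomb genes, whose products methylate lysine 27 or ubiquitinate histone H2A, Phf19 was the 1 called (5.54 to 11.3 RPKM). This share is near that of all genes. Ezh2 (73.9 and 76.8 RPKM), Suz12 (101 and 95.9 RPKM) and Eed (54.7 and 58.8 RPKM) stayed within 1.5-fold. Of 48 DNA repair genes, read against 2.29% of all genes lower and 3.84% higher, 3 were lower (1 with genes centred by length) and 0 higher: Brca2 (6.94 to 4.08 RPKM), Prkdc (2.83 to 1.49 RPKM) and, on chromosome 8, Fanca (12.8 to 7.05 RPKM). Of 34 genes of replication and the cell cycle, cyclin Ccnd3 was higher (56.6 to 117 RPKM), and the licensing factor Cdt1 on chromosome 8 (96.8 to 60.3 RPKM) and Mki67 (29.3 to 17.2 RPKM) were lower. Of 28 p53 target genes 1, Plk3, was higher (6.24 to 10.2 RPKM), a share near that of all genes, and this call ends with the same RPKM total or with centring by length.

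Imprinted genes were called in both directions. H19, a maternally expressed noncoding RNA, was at 98.0 and 562 RPKM. The accession of this row belongs to the microRNA Mir675, which H19 contains, in the current RefSeq table, so no interval was computed and the length behind the value is uncertain. Its neighbour Igf2, a paternally expressed growth factor, was at 5.79 and 1.74 RPKM (3.32-fold lower, 3.13 to 3.52). Peg3, a paternally expressed zinc finger gene, was higher (5.5 to 15.4 RPKM), and the adaptor Grb10 (15.8 to 7.37 RPKM), Phlda2 (86.5 to 46.6 RPKM) and the cell cycle inhibitor Cdkn1c (8.81 to 5.06 RPKM), all listed as maternally expressed, were lower. In all, 3 of 18 maternally and 2 of 20 paternally expressed genes were higher, and 3 and 2 were lower. Among all genes 3.84% were higher and 2.29% lower. Meg3 (40.05 and 44.4 RPKM), Mest (51.8 and 40.9 RPKM) and Snrpn (50.6 and 61.0 RPKM) stayed within 1.5-fold. In the IGF axis 2 of 13 detected genes were higher and 2 were lower, with a median log2 fold of -0.14. The 2 higher genes were Htra1, a protease (6.22 to 19.01 RPKM), and Igfbp4, an IGF-binding protein (13.4 to 27.0 RPKM).

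On chromosome 12 a short stretch held 3 genes that were lower at every stage, of which Srp54b overlaps the other 2. Fam177a (chr12:56225515-56243065 in mm9) was at 1.32 and 0.0898 RPKM, 14.7-fold lower (11.3 to 19.3). Srp54a (chr12:56181557-56214680), a subunit of the signal recognition particle, was at 11.7 and 5.72 RPKM, and Srp54b (chr12:56181483-56290200) was at 9.49 and 4.20 RPKM. In the EBs Fam177a was at 2.54, 3.21 and 3.70 RPKM in WT and at 0.618, 1.36 and 0.529 RPKM in KO. The copy Srp54c (chr12:56331155-56377912) was at 14.7 and 11.5 RPKM, and the flanking genes Baz1a, Ppp2r3c, Psma6 and Nfkbia stayed within 1.5-fold. Srp54a, Srp54b and Srp54c are near-identical copies, so the division of reads among them is uncertain. This stretch and the genes of chromosome 8 were chosen for description after their values were seen.

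Folds varied with the length of the transcript. Outside chromosome 8, 10.8% of the 676 genes with a longest transcript under 1000 nt were higher and 2.81% lower. At 8000 nt or more, 0.488% of 410 genes were higher and 5.12% lower. The median log2 fold went from 0.18 through 0.13, 0.07 and -0.02 to -0.19 over the 5 length classes. Among long genes, Huwe1, a ubiquitin ligase, was at 38.4 and 21.9 RPKM, Macf1, a crosslinker of actin and microtubules, at 12.8 and 6.55 RPKM, and Mdn1, a ribosome assembly ATPase, at 9.99 and 5.01 RPKM. Brca2, Prkdc and Mki67 above are also long. With each length class centred on its median, 353 genes were higher and 308 lower. On that scale the Rhox genes held 10 higher members, the keratins 7, the autosomal germline genes 16 and epithelial structure 16. The claudins held 2 higher members in place of 4, the glutathione transferases 1 in place of 3, the replication-dependent histones 1 in place of 4, de novo methylation and p53 targets 0 in place of 1 each, and DNA repair 1 lower member in place of 3. No measure of RNA quality is given in the sources used here, and its part was not tested.

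**Figure D4:**
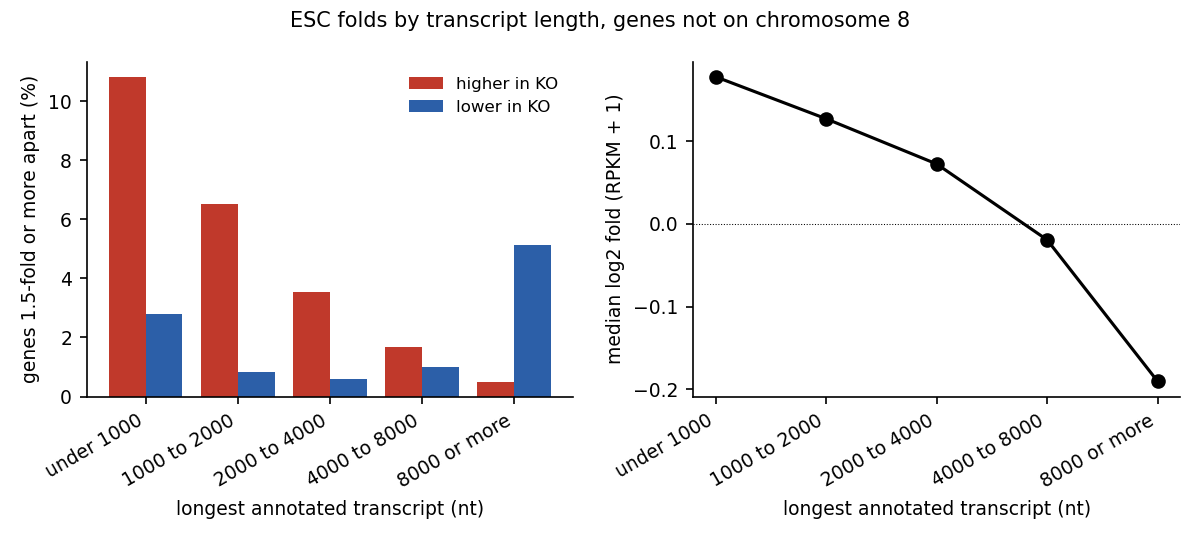
Left, share of genes higher (red) or lower (blue) by 1.5-fold or more in KO ESCs by length of the longest annotated transcript, for genes not on chromosome 8; right, median log2 fold of RPKM + 1 in the same classes. Higher genes go from 10.8% in the shortest class to 0.488% in the longest, and the median log2 fold goes from 0.18 to -0.19.

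Small RNA genes gave the most extreme values and the least certain ones. Of 51 detected, 11 were higher and 14 lower, against 3.84% and 2.29% of all genes. Snora5c was listed at 122 RPKM in WT and at 0 in KO, Mir697 at 31.0 RPKM and at 0, and Mirlet7d at 0 and at 76.7 RPKM. Their transcripts are shorter than the fragments usually kept in such libraries and a value of 0 can be a failed estimate, so no fold in ESCs is given. The most abundant row of both libraries was also of this kind, Mir703, and the protein-coding genes with the highest level were Gnb2l1, Rpl8 and Rpl41.

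The EB libraries, which the calls in ESCs did not use, give a second view of the same genes. At week 1, 106 of 325 detected genes of the ESC-higher group (32.6%) were again higher and 16 were lower, against 8.37% and 6.22% of all genes of that week. At week 2, 111 of 391 (28.4%) were higher and 64 lower, against 10% and 6.42%. At week 3, 99 of 388 (25.5%) were higher and 32 lower, against 7.65% and 7.69%. Of the lower genes on chromosome 8, 49 of 118, 21 of 124 and 45 of 128 were lower at weeks 1 to 3, and 2, 1 and 0 were higher. Of the lower genes elsewhere, 27 of 91, 15 of 99 and 32 of 111 were lower and 9, 20 and 9 were higher.

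Some genes kept their direction throughout. Among 9955 genes detected at all stages, 79 (0.794%) were higher at all 3 weeks and 36 (0.362%) were lower. Of the ESC-higher genes 28 of 316 were higher at all 3 weeks, and 11 of these lie on the X chromosome. These X-linked genes, except AV320801, are multicopy Rhox2, Rhox4 and Xlr genes, and Tuba3a and Tuba3b are also near-identical. Such copies may share reads, so they are not independent counts. The 28 genes include Xlr4c, at 0.861, 0.140 and 1.68 RPKM in WT and at 10.4, 9.93 and 15.2 RPKM in KO EBs, where the genotypes did not overlap. Krt14 was at 0.119, 3.84 and 15.1 RPKM in WT and at 2.12, 18.3 and 50.3 RPKM in KO, which is higher in KO at each week but overlapping across weeks. Tuba3a was at 0.335, 0.796 and 6.02 RPKM and at 2.69, 13.6 and 18.7 RPKM. Of the genes lower in ESCs outside chromosome 8, 8 of 82 were lower at all 3 weeks: Cdkn1c, Fam177a, Igf2, Phlda2, Snora62, Spp1, Srp54a and Srp54b. Igf2 was at 701, 2517 and 653 RPKM in WT EBs and at 4.55, 419 and 27.9 RPKM in KO EBs.

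The Rhox genes as a family kept their direction, with 17 of 17, 16 of 19 and 16 of 19 detected members higher at weeks 1 to 3 and 0, 2 and 0 lower. Within it Rhox6 was at 2.57, 26.7 and 6.35 RPKM in WT and at 33.6, 25.0 and 10.5 RPKM in KO, so at week 2 KO was not above WT. Of the autosomal germline genes, 11 of 20 were higher and 2 lower at week 1, against 8.37% and 6.22% of all genes. At week 2, 27 of 38 were higher and 0 lower, against 10% and 6.42%, and at week 3, 8 of 44 were higher and 7 lower, against 7.65% and 7.69%.

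The Zscan4 and trophoblast genes did not keep their direction. All 4 Zscan4 genes were under 1 RPKM in both libraries of week 1, higher in KO at week 2 and lower in KO at week 3, and Zscan4f was at 0.0511, 0.617 and 6.45 RPKM in WT and at 0.425, 5.39 and 0.870 RPKM in KO. Of 25 detected trophoblast genes 3 were higher and 15 lower at week 2, against 10% and 6.42% of all genes. Acta2 was at 276, 118 and 40.3 RPKM in WT and at 606, 81.3 and 31.5 RPKM in KO. It was called higher at week 1, while at weeks 2 and 3 its KO level was below WT but within 1.5-fold.

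**Figure D5:**
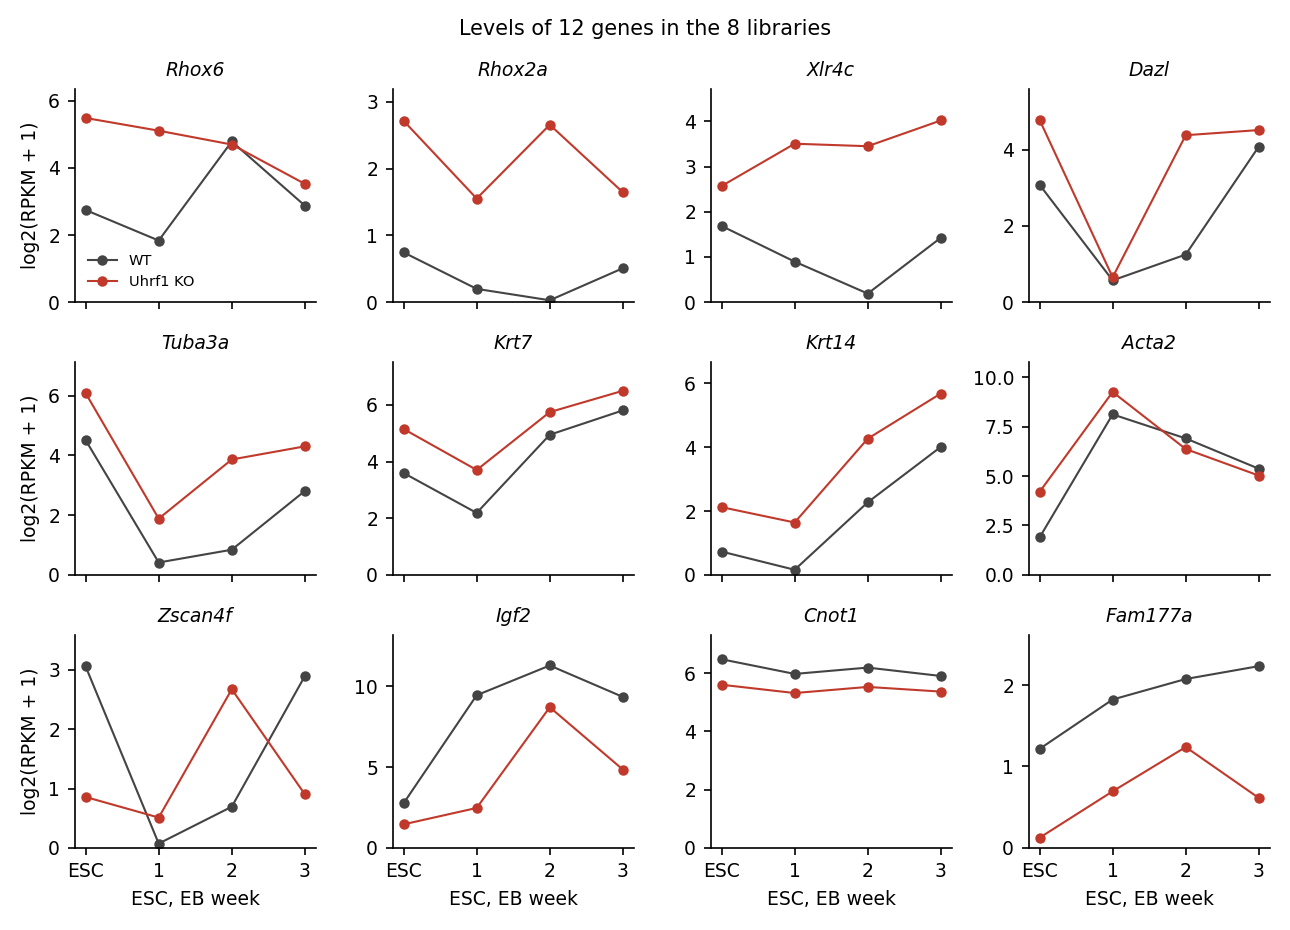
Level of 12 genes as log2(RPKM + 1) in ESCs and in EBs at weeks 1, 2 and 3, with WT in grey and Uhrf1 KO in red; each point is 1 library. Rhox2a, Xlr4c, Krt7, Krt14 and Tuba3a are higher in KO at all 4 stages, and Igf2 and Fam177a are lower at all 4. Cnot1 is called lower in ESCs but not at every EB week. Zscan4f is lower in KO in ESCs and at week 3 and higher at week 2.

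Over the 6 EB libraries, KO was tested against WT with the week as a block (limma on log2(RPKM + 1), Benjamini-Hochberg adjusted p under 0.05). Of 12857 genes 2 (0.0156%) were higher, Xlr and 3830403N18Rik, both on the X chromosome, and 4 (0.0311%) were lower, the small RNA genes Snord99, Snord8, Snord35b and Mir1839, which were listed at 0 in all KO EBs and in both ESC libraries. None of these is among the genes called in ESCs. Xlr was at 0.0763 and 0.675 RPKM in ESCs and at 1.20, 1.09 and 1.19 RPKM in WT and 20.5, 26.6 and 19.3 RPKM in KO EBs. Of the 391 ESC-higher genes tested, 0 passed. Their lowest adjusted p in this limma fit was 0.0939, for Xlr4c. At an unadjusted p under 0.05, 82 were higher and 18 lower, and 267 of the 391 estimates were above 0. Of the 127 lower genes of chromosome 8 tested, 0 passed, 91 were lower and 0 higher at an unadjusted p under 0.05, and 122 estimates were below 0. Over all 664 tested genes of chromosome 8, 366 (55.1%) were lower at that unadjusted level, against 437 (3.65%) of 11959 genes on the other chromosomes. Of the 105 lower genes elsewhere, 0 passed and 21 were lower and 6 higher at an unadjusted p under 0.05. The 3 weeks of a genotype come from 1 line and differ in cell types, so they are not replicate cultures of a condition.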

How the data were processed

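Messenger RNA of 8 libraries was sequenced, 1 for each genotype and stage. Per the study's methods, the authors mapped reads to the mouse genome (mm9) with TopHat 1.1.4 and Bowtie 0.12.7, handled alignments with SAMtools 0.1.18 and computed RPKM with Cufflinks 1.1.0 and RefSeq gene models, and the deposited values, from 0 to 14.55, are log2(RPKM + 1) with no further normalization stated. Strand was not marked as far as the sources say, so overlapping genes on opposite strands cannot be told apart. The KO columns of the table are named by NP95, another name of Uhrf1.

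Values were returned to RPKM. Genes at 1 RPKM or more in either ESC library were compared by log2 of the ratio of RPKM + 1, with no rescaling. Library depth was estimated from the smallest RPKM steps of 5669 genes with 1 annotated transcript of 800 to 6000 nt, and reads recovered with this estimate gave exact Clopper-Pearson 95% intervals for the ratios of 10860 genes. They depend on that estimate, cover counting error only, and reads are not independent molecules. Positions and lengths came from GENCODE M1 (mm9; 161 of the compared genes have none), and promoter sequences from RefSeq (GRCm38.p6). Of all rows, 59 carry the accession of another current gene and have no interval. The EB libraries were tested with limma 3.58.1 (R 4.3.3) on log2(RPKM + 1), with the week as a block, a trended prior and Benjamini-Hochberg adjustment, for genes at 1 RPKM or more in at least 2 of 6 libraries. Other steps used Python 3.11.15, pandas 2.3.3 and scipy 1.17.1, and were tested on simulated data.

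The genes described are the 20 highest and 20 lowest by log2 fold at 5 RPKM or more, the 10 most abundant or most different in RPKM, marked members and the 4 largest folds of 41 lists and 29 families, and genes the study names. Of the latter 21 of 25 were in the table. Genes described by chromosome, by length or by their EB levels were added after their values were seen. Members and lists were chosen with earlier results of these data known, so list counts beside the shares of all genes are descriptive. Alternatives covered the pseudocount, the level filter, the scaling, the fold, chromosome 8 and transcript length. Values of some single genes are not reported here.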

Additional observations from a re-analysis of the deposited data

Results flagged for a closer look

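Some genes called in ESCs lay at 1.5-fold or more in the opposite direction at an EB week. Each difference between stages is that of 1 library a side and was not tested, and values are log2 of the ratio of KO to WT RPKM + 1 at that week. Among genes lower in KO ESCs, Zscan4f was at 1.98 and Zscan4c at 1.92 at week 2. The neighbouring multicopy genes Gm5662 and Gm2016 were at 0.82 and 0.59 at week 2. Calca, which encodes the peptide hormones calcitonin and CGRP, was at 15.6 and 6.07 RPKM in WT and KO ESCs and at 2.00 on this scale at week 2 (1.18 and 7.69 RPKM). Nes was at 0.89 at week 1 (10.1 and 19.7 RPKM).

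Among genes higher in KO ESCs, Rhox9 was at -0.69 at week 2 (22.7 RPKM in WT and 13.7 RPKM in KO) and Hand1 at -0.64 at week 2 (7.08 and 4.17 RPKM).

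The other 10 values belong to small RNA genes, many of them listed at 0 in 1 of the libraries. A value of 0 can be a failed estimate, so these values are listed only and not read as changes of direction. Lower in KO ESCs but higher at a week were Mir697 (5.22 at week 2 and 4.33 at week 3), Snora5c (0.71 at week 2 and 2.92 at week 3), Snora24 (2.80 at week 1), Snora41 (1.41 at week 3), Mir466i (0.95 at week 3) and Mir692-1 (0.69 at week 2). Higher in KO ESCs but lower at week 3 were Snora30 (-4.44) and Snora69 (-2.78).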

How the results depend on the processing

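For single named genes the alternatives were the scalings and a pseudocount of 0.1. These could not reverse a call of 1.5-fold, because scaling moved log2 folds by at most 0.08 and a pseudocount keeps the sign. The numbers of calls moved mainly with the thresholds. The 424 higher genes became 690 with a pseudocount of 0.1, 278 at 5 RPKM or more, 113 at 2-fold and 1503 at a difference of 25% or more. The 253 lower genes became 411 with a pseudocount of 0.1, 36 at 2-fold, 978 at a difference of 25% or more, 121 without chromosome 8 and 164 with each chromosome centred on its median. The 132 lower genes of chromosome 8 became 6 at 2-fold and 367 at a difference of 25% or more. Of the lists and families, 35 had more higher than lower members (23 at 2-fold) and 15 had more lower than higher members (7 at 2-fold and 23 when scaled to the same RPKM total). Of the ESC-higher genes, 31, 40 and 28 were higher by 2-fold at weeks 1 to 3, while 0, 1 and 1 of the lower genes of chromosome 8 and 9, 3 and 12 of those elsewhere were lower by 2-fold. The alternatives without chromosome 8 and with centring by chromosome or transcript length were chosen after seeing the data.

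In the EBs, leaving out 1 week at a time gave 0 to 1 higher and 1 to 7 lower genes, and adding the ESC pair gave 0 and 0, against 2 and 4. Without the block for the week, 2 genes were higher and 4 lower. No paired analysis was possible in ESCs because each genotype has 1 library. Depth was high in ESCs and lower in KO EBs, so low genes are least certain there, and the absence of replicate cultures limits every ESC value.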

Other observations

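Several other gene families held higher members and no lower ones in KO ESCs, read against the 3.84% of all genes that were higher. Of 12 detected serpins, a family of protease inhibitors and related chaperones, 5 were higher, among them Serpinb9b (1.17 to 4.39 RPKM) and the collagen chaperone Serpinh1 (48.7 to 82.3 RPKM). Since 2 of the 12 were under 1 RPKM in WT or KO, the count over genes at 1 RPKM or more in both libraries is 3 of 10, and 1 serpin was lower under each scaling alternative. Of 10 detected S100 calcium-binding proteins 3 were higher (1 of the 7 at 1 RPKM or more in both), with S100a13 at 12.97 and 25.3 RPKM. Of 17 detected glutathione transferases 3 were higher, among them Gstm1 (28.3 to 43.6 RPKM), and 1 was higher when the libraries were scaled by the median ratio or to the same RPKM total or when genes were centred by length. Of 43 detected replication-dependent histone genes 4 were higher, and 1 with each length class centred on its median. Such histone messages mostly lack a poly(A) tail, so their level in poly(A) RNA is uncertain.

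Other families were at or near 0. None of 39 Hox genes and none of 4 Tdpoz genes reached 1 RPKM in either ESC library, and of 59 clustered protocadherins 3 did and none was called. Of 23 oocyte genes 5 were detected and none was called. Among pathways that hold ESCs in self-renewal, none of 10 detected genes of LIF and STAT3 signalling was called. Of 20 detected genes of Wnt signalling 1 was higher and 2 were lower. Of 26 detected genes of Nodal, activin and BMP signalling 1 was higher. These few calls stand against 3.84% of all genes higher and 2.29% lower. Of 45 ubiquitin ligases Siah2 was higher (2.40 to 4.12 RPKM) and Huwe1 was lower, and under each scaling alternative 0 were higher and 2 to 4 lower.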
